A study of Homo sapiens with 5 samples.

Results

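The CCN genes encode a family of small secreted proteins that sit in the extracellular matrix and modulate signalling there. The members are CCN1 (formerly CYR61), CCN2 (CTGF), CCN3 (NOV), CCN4 (WISP1), CCN5 (WISP2) and CCN6 (WISP3). They were found by the Ensembl ID of the current symbol, and all 6 are among the 19936 genes of the files. The libraries come from LX-2, a human hepatic stellate cell line, a model of the liver cells that turn into scar-forming myofibroblasts. Cells were transfected either with a control siRNA (2 libraries) or with siRNA against LIX1L (3 libraries) and lysed after 48 h, so all 5 libraries are from transfected cells of this 1 line. The siRNA sequences and their number are not known from the labels, nor are separate cultures named within a group. The p-values therefore rest on the spread among these 5 libraries alone, and that spread may be technical.

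CCN proteins are built from modules shared with IGF-binding proteins, von Willebrand factor and thrombospondin, mostly followed by a cystine knot at the C-terminus, which CCN5 lacks. They bind integrins, the receptor LRP1, heparan sulphate proteoglycans and growth factors rather than a receptor of their own. CCN1 and CCN2 are immediate early genes, switched on within a short time by serum, stretch and TGF-β through SRF, SMAD proteins and the YAP and TAZ coactivators with their partner TEAD. CCN2 is a long-used marker of stellate cell activation and of fibrosis in several organs, whereas CCN3 has been described as opposing CCN2 in cultured cells. CCN4 and CCN5 were found as genes induced by Wnt1.

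The promoter of CCN2 carries the elements that make it a standard reporter of YAP and TEAD activity, and it is shown for that reason. It comprises the 250 bases before the start of the gene, from RefSeq on GRCh38.p14, chr6:131951373-131951622, minus strand, written 5′ to 3′, with the TEAD core GGAATG in capitals:

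CCN2 promoter: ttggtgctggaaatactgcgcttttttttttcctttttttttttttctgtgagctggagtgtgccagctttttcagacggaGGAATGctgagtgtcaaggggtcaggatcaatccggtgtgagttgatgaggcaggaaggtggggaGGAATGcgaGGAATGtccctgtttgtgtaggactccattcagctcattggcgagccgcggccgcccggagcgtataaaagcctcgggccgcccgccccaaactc

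GGAATG was searched on both strands, without overlap with the other motifs. It stands 3 times on the gene strand, at -169 to -164, -104 to -99 and -95 to -90 from the start. Of 35116 RefSeq promoters of this length, 11.9% hold it at least 1 time and 0.0826% (29 promoters) at least 3 times. A SMAD box, CAGAC, lies just before the first of them, at -177 to -173 (38.0% of promoters hold it on either strand), and a TATA box, TATAAA, at -32 to -27 (10.7% of promoters). These matches are descriptions of the letters, and no binding was measured here. Of the other members CCN6 had an entry in the promoter table, with 1 GGAATG, at -128 to -123.

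Recovered totals over all genes were 14856104 to 18294056 reads per library. LIX1L itself had 1.07 and 1.44 FPKM in control 1 and 2 and 0.268, 0.288 and 0.148 FPKM in siLIX1L 1, 2 and 3 (FPKM is fragments per kilobase of gene per 1000000 reads), lower in every siLIX1L library. Its mean RPM was 5.36-fold lower, and the limma difference on log2(FPKM + 1), which understates changes of low genes, was -0.87 (SE 0.11, adjusted p = 0.0384), against -2.03 with a pseudocount of 0.1 and -2.45 in edgeR. The limma call was lost without siLIX1L 1, 2 or 3, and LIX1L reached the minimum level of the test only through its controls. Of 16 stellate cell and myofibroblast markers 14 had at least 1 read per 1000000 (RPM) in every library, DES and LRAT being below that throughout. Of 8 hepatocyte markers ALB, APOA1, APOB, TTR, CYP3A4 and HNF4A were below 1 RPM in every library. SERPINA1 had at least 1 RPM in every library, and TF was below that in some libraries only. Of 7 macrophage and leukocyte markers CD14 alone had at least 1 RPM in every library, CD68, CD163, MARCO and ITGAM were below it throughout, and the summed level of the 7 was 10.8 to 38.2 RPM in controls and 5.95 to 9.80 RPM in siLIX1L libraries. KDR and TEK, of 7 endothelial markers, and KRT7, SOX9 and KRT8, of 6 epithelial ones, had at least 1 RPM in every library. The summed epithelial markers stood at 287 to 663 RPM in controls and 346 to 383 RPM in siLIX1L libraries. The summed hepatocyte, endothelial and epithelial markers overlapped between the groups. SiLIX1L 1 and 2 were much closer to each other (chi-square per gene 5.59) than any other pair (55.4 or above). Control 1 was farther from control 2 (120.6) than from siLIX1L 1, 2 or 3 (94.1, 102.9 and 104.8). Control 2 was nearer to control 1 than to siLIX1L 1, 2 or 3 (141.2, 163 and 165.4). Reads from mitochondrial genes made up 2.24 and 3.35% in the controls and 1.08, 1.29 and 1.14% after LIX1L siRNA. The part of these reads and of the macrophage markers in the results below was not tested.

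CCN3 rose after LIX1L siRNA. CCN1, the main CCN transcript of control cells, and CCN2 were at lower levels without passing the test. CCN4, CCN5 and CCN6 had from 2 to 156 reads per library, with CCN6 at 10 reads or fewer throughout. Only CCN1, CCN2 and CCN3 reached the minimum for the test (at least 1 FPKM in at least 2 libraries), and they did so in every library. In the limma test on log2(FPKM + 1), 1 of these 3, CCN3, passed an adjusted p of 0.05, and it was higher. Among the 6464 genes tested, 0.743% passed as higher, 1.13% as lower and 1.87% in either direction. The 3 genes all had control and siLIX1L libraries that did not overlap, as had 46.5% of genes tested, so that separation by itself is common in these data. Values given below without 1 control rest on a control group of 1 library, assumed to vary like the siLIX1L libraries, of which 1 and 2 are nearly alike. Without control 1 limma passed 24.1% of 6289 genes and without control 2 it passed 4.09% of 6306, so a call there is a weaker statement about a member than a call with all 5 libraries.

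**Figure D1:**
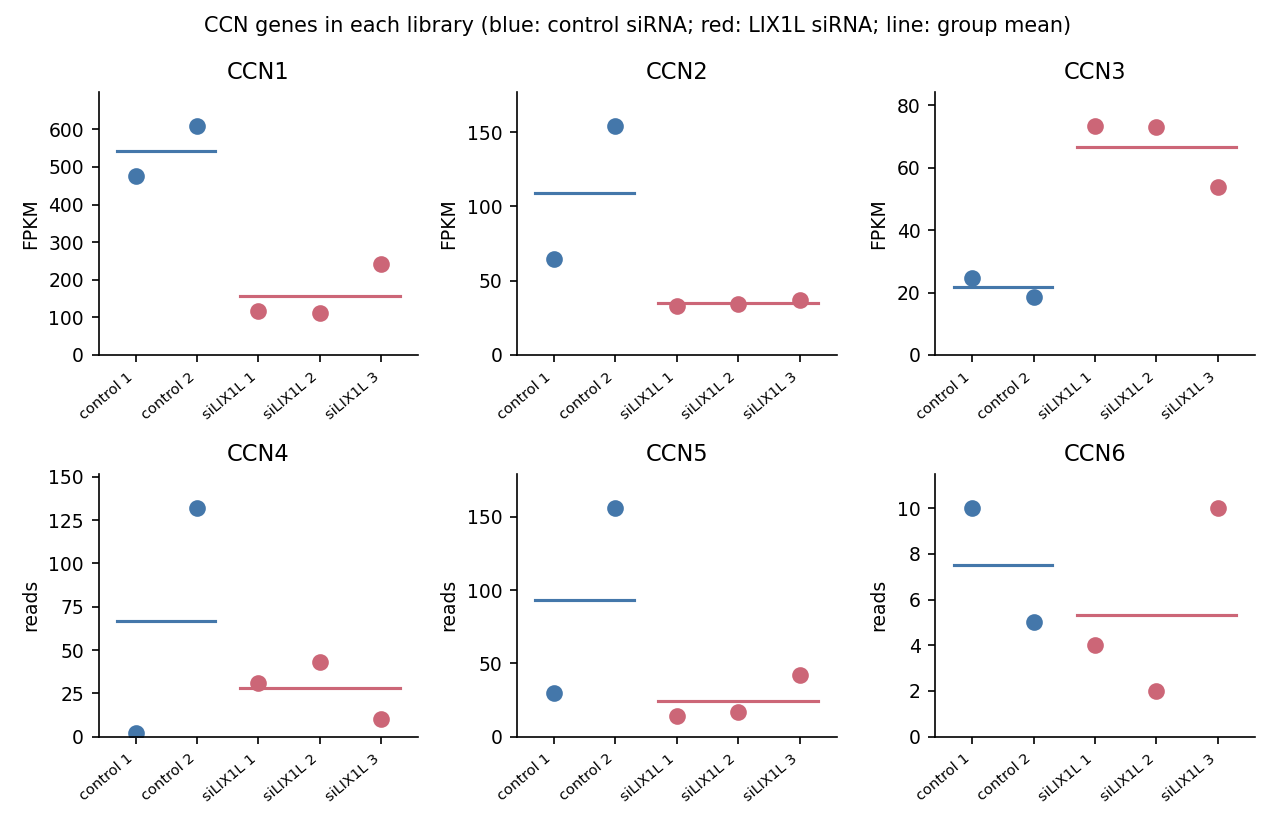
Level of each CCN gene in each library, as FPKM for CCN1, CCN2 and CCN3 (upper row) and as recovered reads for CCN4, CCN5 and CCN6 (lower row); points are libraries and lines are group means. CCN1 and CCN2 lie lower and CCN3 higher in all 3 siLIX1L libraries, with no overlap, while the controls of CCN4 (2 and 132 reads) and CCN5 (30 and 156 reads) lie far apart.

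CCN1 (ENSG00000142871; GRCh38 chromosome 1, 85580761 to 85583962, plus strand, GENCODE 29) encodes a ligand of integrins that promotes adhesion and migration and can drive activated stellate cells into senescence. It had 476 and 608 FPKM in control 1 and 2 and 117, 111 and 243 FPKM in siLIX1L 1, 2 and 3. All 3 siLIX1L libraries lay below both controls, and siLIX1L 3 lay between siLIX1L 1 and 2 and the controls, at 2.13 times the mean of the first pair in RPM. The means were 542 ± 93.1 FPKM (SD, n = 2) and 157 ± 74.4 FPKM (SD, n = 3), a ratio of 3.46-fold in RPM. The log2 difference was -1.87 (SE 0.38), with a limma adjusted p of 0.0552, just short of the threshold; edgeR on the recovered reads gave -1.80 with adjusted p = 0.0631. On this scale, which understates changes of low genes, 15 of the 6464 genes tested had a more negative log2 difference. Without control 1, where 24.1% of genes passed, the limma adjusted p was 0.0463, and without control 2 it was 0.108.

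CCN2 (ENSG00000118523; GRCh38 chromosome 6, 131948176 to 131951373, minus strand), the gene of the promoter shown above, encodes a matrix protein that binds TGF-β and supports collagen deposition. It had 64.5 and 154 FPKM in control 1 and 2 and 32.8, 34.6 and 37.3 FPKM in siLIX1L 1, 2 and 3. The 3 siLIX1L libraries lay close together and below both controls, whereas control 2 held 2.39 times the level of control 1. The means were 109 ± 63.3 FPKM (SD, n = 2) and 34.9 ± 2.25 FPKM (SD, n = 3). CCN2 had a 3.13-fold lower mean RPM, which became 1.85-fold without control 2 and 4.41-fold without control 1. The log2 difference of -1.49 (SE 0.36) did not pass (limma adjusted p = 0.0719; edgeR on the recovered reads -1.68, adjusted p = 0.0638). It passed in limma without control 1 (adjusted p = 0.0134), as did 24.1% of genes, and missed the threshold without control 2 (adjusted p = 0.0508). An antisense gene overlaps 428 bases of CCN2 in GENCODE 29. Whether the libraries kept strand is not stated, so reads of both genes cannot be told apart.

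CCN3 (ENSG00000136999; GRCh38 chromosome 8, 119416306 to 119424353, plus strand) encodes a protein that binds NOTCH1 and integrins and is known for slowing proliferation in many cell types. It had 24.6 and 18.7 FPKM in control 1 and 2 and 73.3, 72.9 and 54.0 FPKM in siLIX1L 1, 2 and 3. Every siLIX1L library lay above both controls, with siLIX1L 3 the lowest of the 3. The means were 21.6 ± 4.20 FPKM (SD, n = 2) and 66.7 ± 11.1 FPKM (SD, n = 3), a rise of 3.08-fold in RPM. The log2 difference was 1.58 (SE 0.22, limma adjusted p = 0.0384). On this scale, which understates changes of low genes, 5 of the 6464 genes tested had a larger positive one. EdgeR gave 1.62 (adjusted p = 0.0438), where 0.891% of 13026 genes passed in either direction. The limma call was lost without siLIX1L 1 (adjusted p = 0.146), siLIX1L 2 (adjusted p = 0.228) or siLIX1L 3 (adjusted p = 0.0715), settings in which no gene passed, although 882 to 1764 genes had an unadjusted p under 0.05. With a single control library the adjusted p was 0.0184 without control 1 and 0.0489 without control 2, where 24.1% and 4.09% of genes passed; these values do not show that the call is stable. An antisense gene overlaps 4444 bases of CCN3 and could not be separated. DESeq2, which called 12.5% of the 13334 genes with an adjusted p, called all 3 members, with adjusted p = 2.66e-04 for CCN1, adjusted p = 4.97e-04 for CCN2 and adjusted p = 4.47e-08 for CCN3.

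**Figure D2:**
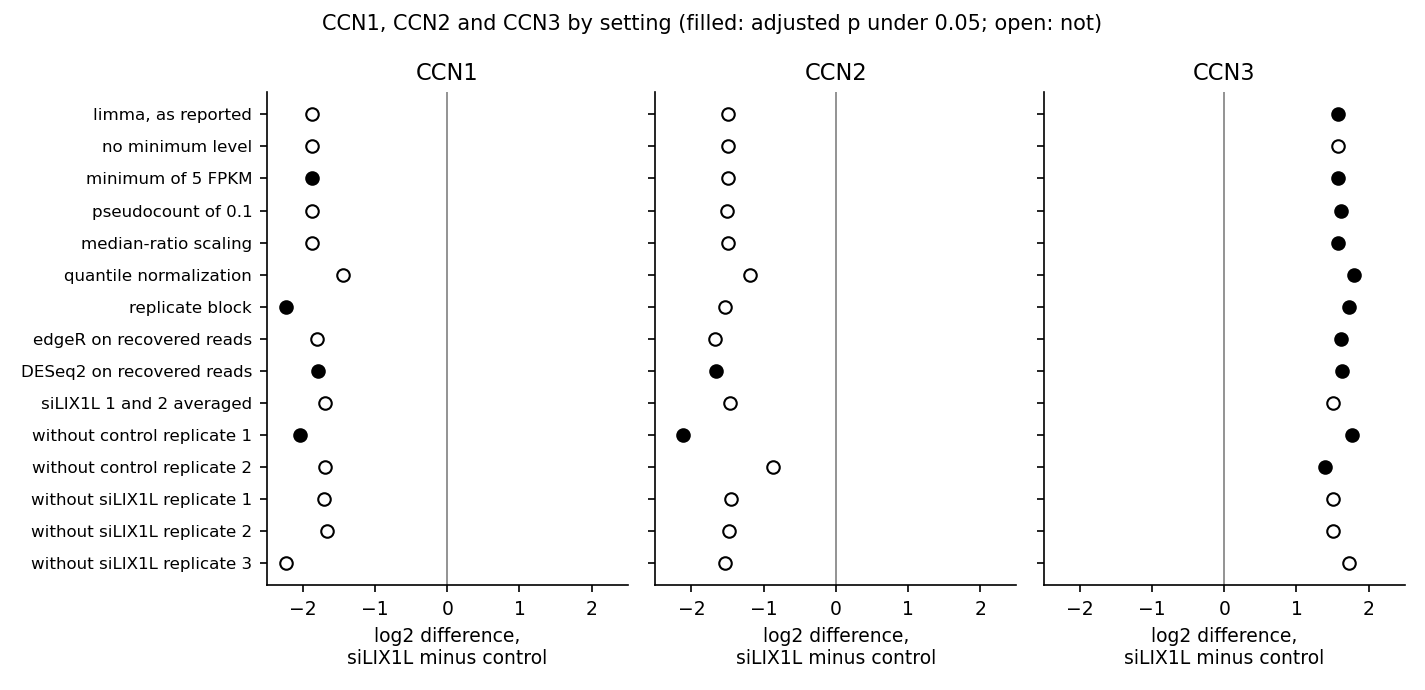
Log2 difference between siLIX1L and control libraries for CCN1, CCN2 and CCN3 (x axis) under the test as reported and 14 other settings (y axis); filled points have an adjusted p under 0.05. The sign of each gene is the same in all 15 settings, between -2.23 and -1.45 for CCN1, between -2.11 and -0.87 for CCN2 and between 1.39 and 1.79 for CCN3, while the side of the threshold varies.

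The order of the members by level was not the same in both groups. The deposited FPKM is per kilobase of the whole gene with introns, which puts genes with long introns low, so the members were compared with each other as reads per kilobase of merged exons per 1000000 reads (exon RPKM), in which any intronic reads are still counted. In control 1 and 2 CCN1 had 621 and 793 exon RPKM, CCN2 had 88.2 and 211, and CCN3 had 74.1 and 56.2. CCN1 ranked 17 and 20 from the top among 19926 genes with an exon length. In siLIX1L 1, 2 and 3 CCN1 had 153, 145 and 317 exon RPKM, CCN3 had 221, 220 and 163, and CCN2 had 44.9, 47.2 and 51.0. CCN3 therefore stood above CCN1 in siLIX1L 1 and 2 and below it in siLIX1L 3, so the order of CCN1 and CCN3 after LIX1L siRNA was within the spread of the libraries. CCN2 was the lowest of the 3 in each siLIX1L library, and in the controls it lay above CCN3 in both, though in control 1 by only 1.19 times.

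The ratio of CCN1 to CCN3 in exon RPKM, taken within each library, came to 8.39 and 14.1 for control 1 and 2 but to 0.692, 0.659 and 1.95 for siLIX1L 1, 2 and 3. Those of CCN2 to CCN3 were 1.19 and 3.74 in the controls and 0.203, 0.215 and 0.314 after LIX1L siRNA. Neither ratio overlapped between the groups, which follows from CCN1 and CCN2 being lower and CCN3 higher without overlap, and adds nothing further. Summed over the 6 members, the level reached 784 and 1063 exon RPKM in the controls but 419, 412 and 531 after LIX1L siRNA. CCN3 made up 9.44 and 5.29% of that sum in the controls and 52.7, 53.3 and 30.6% after LIX1L siRNA, and CCN1 79.2 and 74.6% against 36.4, 35.1 and 59.6%. CCN2 had a share of 9.61 to 11.5% in the siLIX1L libraries, against 11.2 and 19.8% in the controls. The RNA is bulk, so fewer cells that express a member and less of its RNA per cell cannot be told apart.

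**Figure D3:**
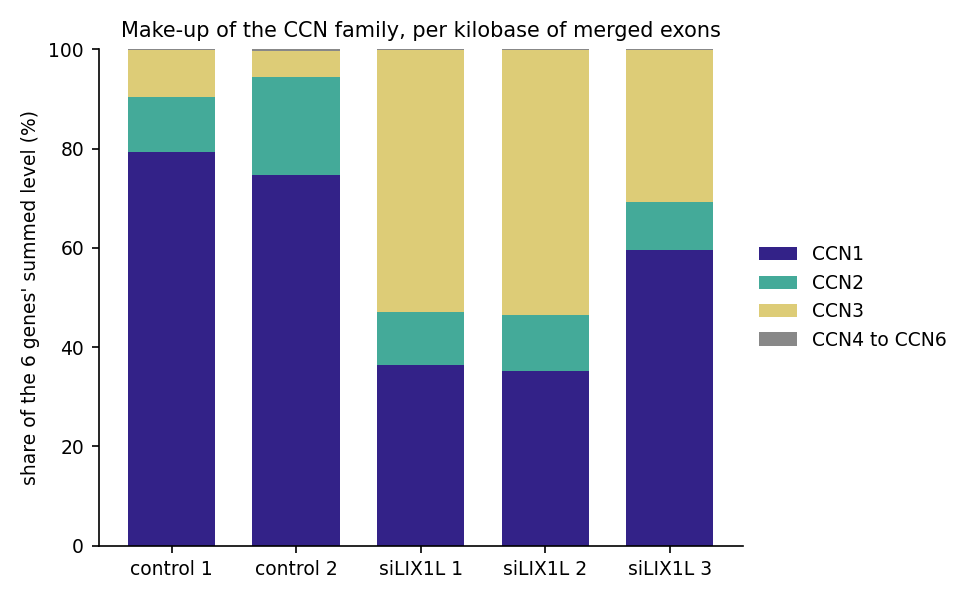
Share of each CCN gene in the summed exon RPKM of the 6 members (y axis, percent), for each library (x axis). CCN3 takes 5.29 to 9.44% of the column in controls and 30.6 to 53.3% in siLIX1L libraries, and CCN4 to CCN6 are too low to be seen.

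CCN4 (ENSG00000104415; GRCh38 chromosome 8, 133191039 to 133231690, plus strand) encodes a Wnt-induced secreted protein found in activated fibroblasts and in osteoblasts. It had 2 and 132 reads in control 1 and 2 and 31, 43 and 10 reads in siLIX1L 1, 2 and 3. The controls bracketed all siLIX1L libraries, and control 1 was under the 3 reads that a count of 0 allows. Its edgeR log2 difference of -1.09 (adjusted p = 0.581) turned to 3.69 without control 2 (adjusted p = 0.164), so no direction can be given.

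CCN5 (ENSG00000064205; GRCh38 chromosome 20, 44714844 to 44728509, plus strand), the member without the C-terminal module, is best known as a growth inhibitor of smooth muscle cells. It had 30 and 156 reads in the controls and 14, 17 and 42 reads in siLIX1L 1, 2 and 3, or 2.02 and 8.53 RPM against 0.942, 1.13 and 2.36 RPM. SiLIX1L 3 lay above control 1, so the groups overlapped, and control 2 held 4.23 times the RPM of control 1. Its edgeR log2 difference was -1.86 (adjusted p = 0.149). The ratio of mean RPM was 3.57-fold lower with all libraries, 1.37-fold without control 2 and 5.78-fold without control 1, where edgeR gave an adjusted p of 0.0270 and called 22.4% of 13402 genes. An antisense gene covers all 13666 bases of CCN5 in the annotation, and its reads cannot be told apart.

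CCN6 (ENSG00000112761; GRCh38 chromosome 6, 112054072 to 112070969, plus strand), whose loss of function causes a skeletal dysplasia of cartilage, was barely detected. It had 10 and 5 reads in the controls and 4, 2 and 10 reads in siLIX1L 1, 2 and 3, and siLIX1L 2 was under the 3 reads that a count of 0 allows. Pooling gave 15 control and 16 siLIX1L reads, a ratio of control to siLIX1L RPM of 1.35 whose exact 95% interval, 0.622 to 2.92, covers counting error alone. A difference was not detectable at this depth. TUBE1 overlaps 193 bases of CCN6 on the other strand.

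The patterns of CCN1 and CCN2 over the 5 libraries were alike in direction and differed in detail. Likeness was taken as the Euclidean distance between profiles of log2(RPM + 0.5), each centred on its own mean, over the 10651 genes with at least 50 reads in every library, as a description without a test. CCN1 and CCN2 were 1.08 apart, against a median distance from CCN1 of 2.37 over all genes, and 113 genes were nearer to CCN1 than CCN2 was. From CCN2 the median distance over all genes was 2.03, and 506 genes were nearer to CCN2 than CCN1 was. CCN3 was 4.06 from CCN1 and 3.66 from CCN2, with 10610 genes nearer to CCN1. Nearest to CCN1 were SNRNP35, a component of the minor spliceosome (distance 0.436), ACTA2, the α smooth muscle actin of myofibroblasts (distance 0.458), and DUSP1, an immediate early phosphatase of MAP kinases (distance 0.498). In ACTA2 the levels were 39.0 and 35.4 RPM in the controls and 8.89, 8.41 and 14.8 RPM in siLIX1L 1, 2 and 3, with siLIX1L 3 the highest of the 3 as in CCN1. The nearest genes were picked by this distance over the same 5 libraries, so a pattern shared with the member follows from that.

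Nearest to CCN2 were CTSV, a lysosomal cathepsin (distance 0.243), IDH2, the mitochondrial isocitrate dehydrogenase (distance 0.248), and NOTCH3, a Notch receptor of mural cells (distance 0.277). All 3 were higher in control 2 than in control 1, NOTCH3 with 32.3 against 10.6 RPM, and even across the siLIX1L libraries, NOTCH3 with 6.73, 6.75 and 6.91 RPM. This likeness to CCN2 too follows from the choice by distance. Nearest to CCN3 were FAM217B (distance 0.297), NOMO3, a membrane protein of the endoplasmic reticulum (distance 0.301), and SEC24C, a coat protein of COPII vesicles (distance 0.307). SEC24C had 30.7 and 25.1 RPM in the controls and 82.7, 93.7 and 81.4 RPM after LIX1L siRNA. NOMO3 has near-identical copies in the genome and its count is uncertain.

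**Figure D4:**
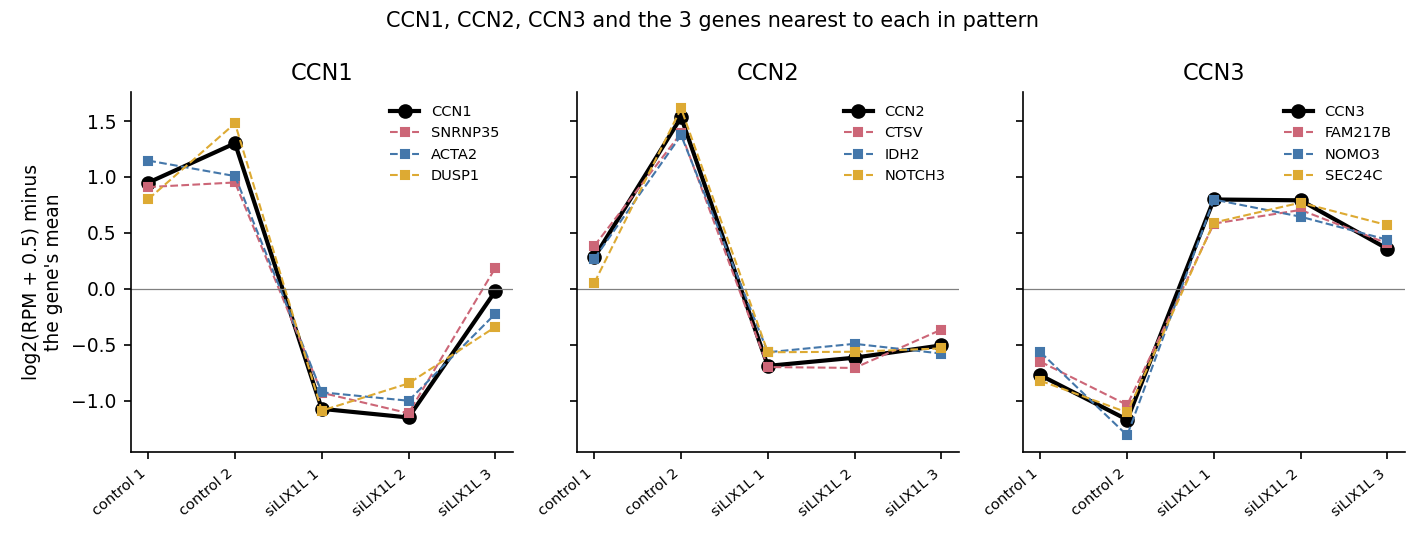
Log2(RPM + 0.5) minus the gene's mean over the 5 libraries (y axis) in each library (x axis), for CCN1, CCN2, CCN3 (black) and the 3 genes nearest to each (dashed). The CCN1 group shows siLIX1L 3 above siLIX1L 1 and 2, the CCN2 group shows control 2 above control 1, and the CCN3 group is low in both controls. The dashed genes were picked by their distance to the member over these libraries, so the shared shapes follow from that choice.

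No receptor of CCN proteins was called. Of 22 listed receptors and coreceptors, none of the 11 tested in limma and none of the 17 tested in edgeR passed. In limma 5 had positive and 6 negative differences, with a median of -0.08, against -0.01 over all genes tested. ITGAV, the αv integrin subunit that pairs into several CCN receptors, had 1.22 and 1.89 FPKM in the controls and 1.65, 1.74 and 1.70 FPKM after LIX1L siRNA (limma adjusted p = 0.713). LRP1, a scavenger receptor that takes up CCN2, had 2.35 and 4.86 FPKM against 3.15, 3.64 and 4.74 FPKM (limma adjusted p = 0.813). Both overlapped between the groups. ITGA6, the α6 subunit through which CCN1 acts on fibroblasts, lay above both controls in all siLIX1L libraries, at 1.40 and 1.42 against 3.25, 3.55 and 2.52 FPKM, and missed the threshold (limma adjusted p = 0.0536). IGF2R, a receptor that also binds CCN2, had 1.28 ± 0.582 (SD, n = 2) against 2.32 ± 0.334 FPKM (SD, n = 3; limma adjusted p = 0.126).

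Of 19 genes for growth factors and matrix proteins that CCN proteins bind, 7 were tested, 6 with negative and 1 with a positive difference (median -0.44), and none passed. Over all genes tested 50.6% had a negative difference. VEGFA, which CCN2 binds and holds back, had 16.5 and 8.63 FPKM in the controls and 5.004, 5.62 and 4.40 FPKM after LIX1L siRNA (limma adjusted p = 0.0723). BMP4, another partner of CCN2, had 1.95 and 1.54 FPKM against 1.01, 1.12 and 0.945 FPKM (limma adjusted p = 0.0826). NOTCH1, the Notch receptor that CCN3 binds, had 1.51 and 1.79 FPKM in the controls and 0.967, 1.03 and 1.35 FPKM in siLIX1L 1, 2 and 3 (limma adjusted p = 0.160). Of the 14 genes of the Notch list, 4 were tested and none passed, with 3 negative. HES1, a Notch target that is also an early response gene, had 4.52 and 20.8 FPKM in the controls and 1.07, 1.18 and 0.824 FPKM after LIX1L siRNA (limma adjusted p = 0.0604), with control 2 far above control 1 as in CCN2. NOTCH2 had 2.37 ± 0.483 (SD, n = 2) against 3.73 ± 0.329 FPKM (SD, n = 3; limma adjusted p = 0.103).

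Among 28 inducers and regulators of CCN1 and CCN2 (TGF-β ligands, receptors and SMADs, YAP, TAZ and TEAD, and SRF and its coactivators, among others) 13 were tested. TGFBR2, the type II TGF-β receptor, rose, and the other 12 did not pass, where 0.743% of all genes tested passed as higher. The median of the list was 0.00. TGFBR2 had 0.973 and 0.790 FPKM in the controls and 2.18, 2.42 and 2.29 FPKM after LIX1L siRNA (2.60-fold; log2 difference 0.81, SE 0.12, limma adjusted p = 0.0384). It reached the minimum level of the test only through the siLIX1L libraries, where it is high, so its call is no support for a change of the list.

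In a published signature of 22 YAP and TEAD targets that includes CCN1 and CCN2, 16 genes were tested, with 9 positive and 7 negative differences. Without CCN1 and CCN2 the median of the other 14 was 0.06. Of the 16, 1 rose and 1 fell, where 1.87% of all genes tested passed in either direction. NT5E, the ectonucleotidase CD73, rose from 6.44 ± 1.23 (SD, n = 2) to 14.5 ± 1.75 FPKM (SD, n = 3; limma adjusted p = 0.0493), a call that edgeR did not make (adjusted p = 0.0558). IGFBP3, an IGF-binding protein, fell. It had 10.6 and 15.0 FPKM in the controls and 4.06, 4.06 and 3.01 FPKM after LIX1L siRNA, 3.44-fold lower in RPM (limma adjusted p = 0.0384).

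IGFBP3 also belongs to the proteins that share the IGF-binding module with the CCN family. Of 13 such genes 6 were tested, IGFBP3 and IGFBP6 fell and 4 did not pass, with a median of -0.51. Over all genes tested 1.13% passed as lower, and the median was -0.01. IGFBP6, which binds mainly IGF-II, had 14.2 and 20.2 FPKM in the controls and 6.96, 6.22 and 6.05 FPKM after LIX1L siRNA (2.68-fold lower; limma adjusted p = 0.0394). Of 20 listed targets of Wnt and β-catenin, which include CCN4 and CCN5, 5 were tested. CCND1, the G1 cyclin, rose 4.16-fold from 24.1 and 11.0 FPKM to 74.5, 78.1 and 66.6 FPKM (limma adjusted p = 0.0394). Its rise was 6.62-fold without control 1 and 3.03-fold without control 2. The other 4 tested genes of the list did not pass, where 0.743% of all genes tested passed as higher.

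Of the 8 lists linked to the CCN family, that of SRF targets and immediate early genes had the most negative median. The list holds CCN1 and CCN2 themselves. Of 30 genes 23 were tested, 6 fell, none rose and 17 did not pass, where 1.13% of all genes tested passed as lower. Of the 6, FOS and FOSB were under 1 FPKM in every siLIX1L library and entered the test only through their controls, where they are high. The other 4 are EGR1, JUN, IER3 and DUSP1. Among the 17 that did not pass were SRF, VCL, ACTG2, CNN1 and TAGLN, with log2 differences of 0.07, 0.30, -0.17, -0.47 and -0.57. Differences were negative in 18 of 23, CCN1 and CCN2 among them, against 50.6% of all genes tested. The median was -1.09, or -0.73 over the 21 other than CCN1 and CCN2. DUSP1, already picked above by its likeness to CCN1, fell from 59.1 and 94.7 to 15.8, 18.8 and 26.7 FPKM (3.77-fold lower, limma adjusted p = 0.0443). FOS, a subunit of AP-1, had 14.6 and 57.4 FPKM in the controls and 0.701, 0.747 and 0.422 FPKM after LIX1L siRNA (57.8-fold lower, 92.1-fold without control 1 and 23.5-fold without control 2; limma adjusted p = 0.0384). FOSB (10.4-fold lower, 5.79-fold without control 2; limma adjusted p = 0.0389) and IER3 (2.77-fold lower; limma adjusted p = 0.0384) fell too. In FOS, FOSB, IER3 and DUSP1 control 2 was higher than control 1, as it was in CCN1 and CCN2 and not in CCN3. CCN3 had 18.7 FPKM in control 2 against 24.6 in control 1.

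**Figure D5:**
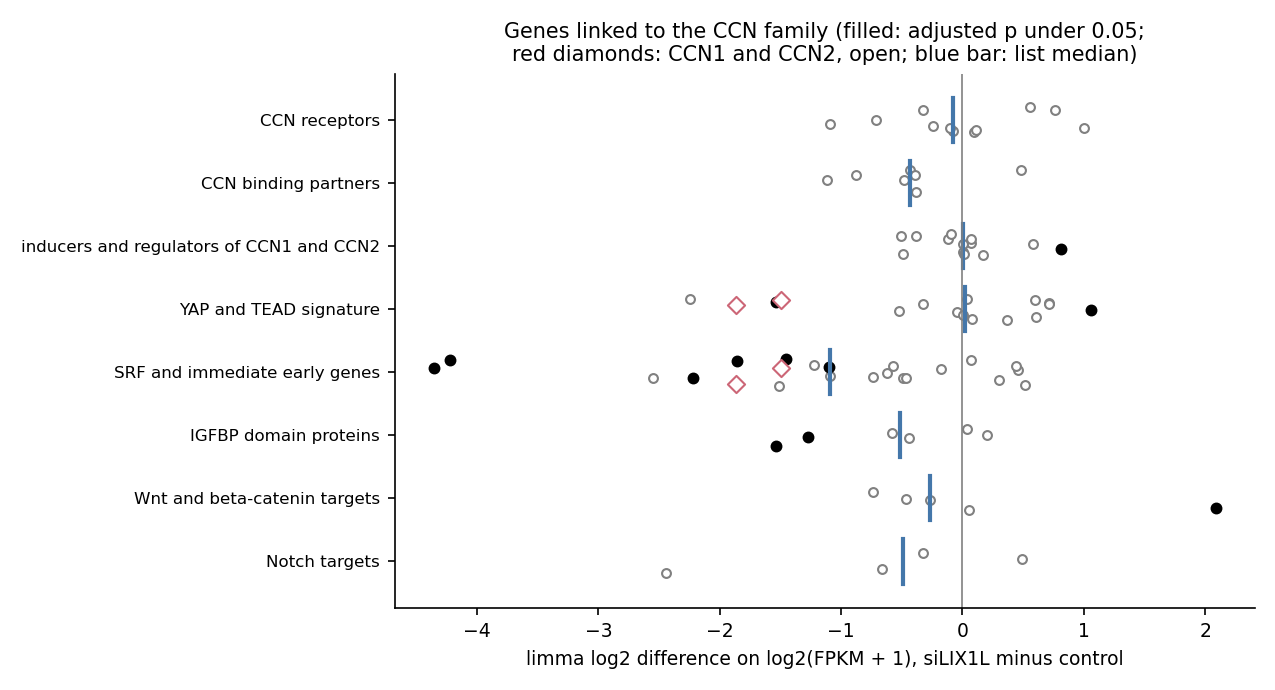
Limma log2 difference on log2(FPKM + 1) between siLIX1L and control libraries (x axis) for each tested gene of 8 lists linked to the CCN family (y axis); filled points passed an adjusted p of 0.05, red diamonds are CCN1 and CCN2, blue bars are list medians and the grey line is the median of all genes tested. The medians run from -1.09 for SRF targets and immediate early genes to 0.02 for the YAP and TEAD signature, both with CCN1 and CCN2 included.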

How the data were processed

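RNA-seq of 2 control and 3 siLIX1L libraries was used, grouped by the siRNA in the labels. The authors deposited FPKM per gene for each library and, for siLIX1L 3, gene lengths and raw read counts, per the file headers. The record of siLIX1L 3 also does not follow in number those of the other libraries. Whether it was prepared apart from them is not stated, and a batch effect was not tested. Bowtie 0.12.2 and mm8, a mouse build, appear in the submitters' processing notes, while the IDs are human; the build, counting tool and strand are uncertain. Of 19926 IDs found in GENCODE 29 (GRCh38), 19567 have a deposited length equal to the gene span, introns included.

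Multiplying FPKM by length gave whole reads (tolerance 0.01 reads) for 100% of values in each library, and these recovered reads were equal to the deposited counts in siLIX1L 3 for all 19936 genes. The 3 reads that a count of 0 allows are worth 0.164 to 0.202 RPM. Read intervals and limits cover counting error only.

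Values on the log2(FPKM + 1) scale, which understates changes of low genes, were tested in limma 3.58.1 under R 4.3.3 (robust, trended eBayes; two-sided), for genes that reached 1 FPKM in 2 or more libraries. Adjusted p-values are Benjamini-Hochberg over all genes tested, with 0.05 as threshold. EdgeR 4.0.16 (quasi-likelihood, robust, TMM) and DESeq2 1.42.0 (Wald) on recovered reads were alternatives. Fold values are ratios of mean RPM. The code of the fits was checked on simulated, independent libraries with a common spread for all genes. The libraries here differ from that, so the check says nothing about the calls made here. Replicate numbers are not said to mark a shared culture or day, so no block was used.

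The members, lists and rules were chosen with earlier results of these data known. Named are the members, LIX1L, up to 4 genes per list past the threshold or else the 2 with the smallest p, the receptors ITGAV, LRP1 and NOTCH1, and the 3 genes nearest in pattern to each member with at least 50 reads in every library. Symbols came from a gene name table (19808 of 19936 IDs matched).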

Additional observations from a re-analysis of the deposited data

How the results depend on the processing

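CCN1 and CCN2 kept negative and CCN3 kept a positive difference in all 14 alternatives. The number of members called, 1 as reported, was 2 with a minimum of 5 FPKM (5.66% of all genes tested passed) and with the replicate block (1.45%), 3 with DESeq2 (12.5%), and 0 without a minimum level (where 0 genes passed and 3407 had an unadjusted p under 0.05) or with siLIX1L 1 and 2 averaged. Leaving out 1 library gave 0 to 3, the 3 without control 1, where 24.1% of genes passed against 1.87% with all libraries. CCN1 passed with a minimum of 5 FPKM (-1.87), the replicate block (-2.23), DESeq2 (-1.78) and without control 1; leaving out 1 library gave -2.23 to -1.67. CCN2 passed with DESeq2 (-1.66) and without control 1, with a range of -2.11 to -0.87. CCN3 did not pass without a minimum level (1.58), with siLIX1L 1 and 2 averaged (1.51) or without any 1 siLIX1L library (range over libraries left out 1.39 to 1.77). LIX1L lost its call in the same settings, at -0.87 without a minimum level and -0.89 with the average, and -0.90 to -0.82 without 1 siLIX1L library; without either control it fell under the minimum and had no test. The cause of these changes was not tested. The settings that leave 1 library out, average 2 or use the replicate block also rest on fewer libraries.

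For CCN4, CCN5 and CCN6, which lie under the FPKM minimum, the differences of -0.06, -0.30 and -0.01 on log2(FPKM + 1) became larger on reads, which carry no pseudocount of 1 FPKM: -1.09 and -1.86 in edgeR for CCN4 and CCN5, and -1.04, -1.84 and -0.51 in DESeq2. In edgeR fits added after seeing the data, CCN4 turned to 0.43 with the replicate block and 3.69 without control 2. The edgeR fit with the replicate block called 1146 genes (8.80%), against 116 without it, and among them CCN1 (edgeR adjusted p = 7.48e-06), CCN2 (adjusted p = 3.18e-04), CCN3 (adjusted p = 1.51e-04) and CCN5 (adjusted p = 0.0182). With the block, in either tool, siLIX1L 3 has no part in the difference, since no control shares its number. The spread in that fit rests on the libraries numbered 1 and 2 alone, of which siLIX1L 1 and 2 are nearly alike. Its small adjusted p-values are therefore no stronger statement about a member than those without the block. Without control 1, edgeR also called CCN1, CCN2, CCN3 and CCN5, among 22.4% of genes. Deviations of same-numbered libraries from their group means correlated at -0.12 and -0.10 for numbers 1 and 2 over 6464 genes. The deviations of control 1 and control 2 are mirror images, and siLIX1L 1 and 2 are nearly alike. These values therefore cannot show whether same-numbered libraries were paired. In limma the block gave 94 calls over all genes, against 121. Depth limits CCN4 and CCN6 most, with 2 reads in at least 1 library each.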
